A study of Mus musculus with 6 samples.

Results

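The cytosolic ribosomal protein genes were compared between wild-type mice and mice carrying NIKaly/aly, the homozygous aly point mutation of Map3k14, the gene of NF-kB-inducing kinase (NIK), which drives the alternative NF-kB pathway. The cells were LSK cells sorted fresh, a fraction defined by the surface proteins Sca-1 and c-Kit and by the lack of lineage markers, which holds hematopoietic stem cells and multipotent progenitors. There were 3 wild-type samples, numbered 1, 3 and 5, and 3 NIKaly/aly samples, numbered 2, 4 and 6, each on its own array of 60-base probes. No treatment is labelled in either group, and the age, sex and strain background of the mice are not in the labels used here. The aly allele is carried in every cell of the animal, so the labels restrict its effect to no cell type. The labels do not say whether samples came from separate animals, so p-values measure only how far these samples spread, and that spread may be technical. Members were the probes whose gene name in the files starts with Rpl or Rps and a digit, or is Rpsa, Rplp0, Rplp1 or Rplp2, with the Rps6k kinases left out. This took 92 of 34821 gene names, 53 of the large and 39 of the small subunit, through 202 probes. They were 76 core genes (45 large, 31 small), 9 paralog names, 6 pseudogene names and Rps19bp1, which encodes a protein that binds RPS19 and is no ribosomal protein. A total of 88 names passed the filter, which took probes that the scanner software marked as clearly above background on 3 or more of the 6 arrays. Rpl10l, Rpl39l, Rpl3l and Rps15a-ps6 did not pass it.

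A cytosolic ribosome joins a small subunit, which reads the mRNA, to a large subunit, which forms the peptide bond, and each holds ribosomal RNA and a fixed set of proteins made in near-equal amounts. Most of these proteins come from mRNAs that start with a 5' terminal oligopyrimidine (TOP) tract, a C followed by a run of C and T letters, through which mTOR signalling and LARP1 control their translation together. Hematopoietic stem cells are known for a low and tightly held rate of protein synthesis, and loss of 1 copy of any of several ribosomal protein genes causes Diamond-Blackfan anemia, a failure of red cell production.

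The probes that carry the main contrast are those of the RPS4 paralogs, shown because Rps4x is a core gene of the small subunit while Rps4y2, despite its name, is not a Y-linked gene in the mouse. The deposited files place the Rps4y2 probe at chr6:148304043-148304102 (mm9). RefSeq (GRCm38.p6) now names the gene Rps4l and lists it as a transcribed pseudogene. For Rps4x the files hold a pair of probes, at chr5:3876189-3876248 and chr3:112105991-112106050 (mm9), neither on the X chromosome, where the gene lies. The strand of these positions was not read from the files. No run of 20 bases was shared between the Rps4y2 probe and any probe with another member name. The probe sequences, 5' to 3' as in the files, were:
Rps4y2: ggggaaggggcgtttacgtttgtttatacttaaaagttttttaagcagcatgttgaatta
Rps4x, probe used: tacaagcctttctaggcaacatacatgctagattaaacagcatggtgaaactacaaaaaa
Rps4x, other probe: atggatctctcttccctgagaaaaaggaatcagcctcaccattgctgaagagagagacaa

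A TOP tract at an annotated start was searched for as a C at the first transcribed base, followed by at least 4 further C or T letters, on the gene's strand only. RefSeq starts were at hand for 56 of the 76 core genes, and 13 of them (23.2%) had such a tract, against 3.01% of the 27025 genes in the same table. The following windows of 30 bases on the gene's strand, from RefSeq (GRCm38.p6), show the tract in capitals, for genes of both subunits, including the S6 kinase substrate Rps6. They are Rpl15 at chr14:18270972-18271001 (minus strand), Rpl35a at chr16:33056467-33056496 (plus strand), Rpl38 at chr11:114668565-114668594 (plus strand), Rps10 at chr17:27635230-27635259 (minus strand) and Rps6 at chr4:86857353-86857382 (minus strand).
Rpl15: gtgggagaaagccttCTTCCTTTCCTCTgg
Rpl35a: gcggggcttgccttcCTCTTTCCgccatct
Rpl38: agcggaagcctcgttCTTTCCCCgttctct
Rps10: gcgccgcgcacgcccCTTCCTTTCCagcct
Rps6: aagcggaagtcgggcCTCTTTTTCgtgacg

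The ribosomal protein genes of NIKaly/aly LSK cells differed little from wild type on average. The 1 exception among the member names was Rps4y2, which RefSeq lists as a transcribed pseudogene. Levels are log2 signals relative to the 75th percentile of the same array, and differences are NIKaly/aly minus wild type. The median difference over the 88 tested names was -0.012, beside -0.0081 over all 15684 tested genes, with 40 names higher and 48 lower. The 50 large-subunit names had a median difference of -0.0037 and the 38 small-subunit names of -0.018. In all, 86 of the 88 lay within 0.25 of no difference, and the others were Rps4y2 and the pseudogene name Rpl34-ps1, at -0.30 ± 0.52 (SE). Despite that name, RefSeq lists Rpl34-ps1 as protein coding. Between consecutive samples Rpl34-ps1 differed by 0.04 (1 and 2), 0.007 (3 and 4) and -0.96 (5 and 6). Which sign prevailed depended on the scaling. Members above 0 were 45.5% with the 75th percentile and 86.4% with scaling to the array's median, beside 48.5% and 64.6% of all genes. They were 76.1% with quantile normalization and 77.3% after normexp background correction, beside 51.8% and 54.3% of all genes. The members' median minus the all-gene median was -0.0037 under both the 75th percentile and the array's median. Both scalings subtract 1 value per array, so this figure could not differ between them. It was 0.039 with quantile normalization, 0.051 after normexp background correction and 0.078 with arrays weighted by their quality.

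No ribosomal protein gene passed limma's test at an adjusted p of 0.05 (0 of 88), nor did any of the 15684 genes (0%). At an unadjusted p under 0.05 there was 1 member, Rps4y2, against a background of 1.33% of all tested genes. The genotypes did not overlap with NIKaly/aly higher for 0 of 88 members (background 2.68%), and with NIKaly/aly lower for 1, Rps4y2 again (background 1.89%). At least 2-fold apart was 1 of 88, beside 2.07% of all genes. These shares are at or below the background. The median standard error of a member's difference was 0.50, and its 95% interval reached a median of 1.16 to each side. That error depended on the setting. It was 0.12 with quantile normalization, 0.15 with the pair block, 0.15 scaled to the members' median and 0.18 without samples 1 and 2. The scaling to the members' median, chosen after seeing the data, removes array shifts that the members share, which lowers this error by construction. Each setting had 1 of 88 members at an unadjusted p under 0.05, beside 274, 1153, 128 and 327 of 15684 genes in that order. At an adjusted p under 0.05 there were 0 members in each, beside 0, 2, 0 and 0 of all genes.

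**Figure D1:**
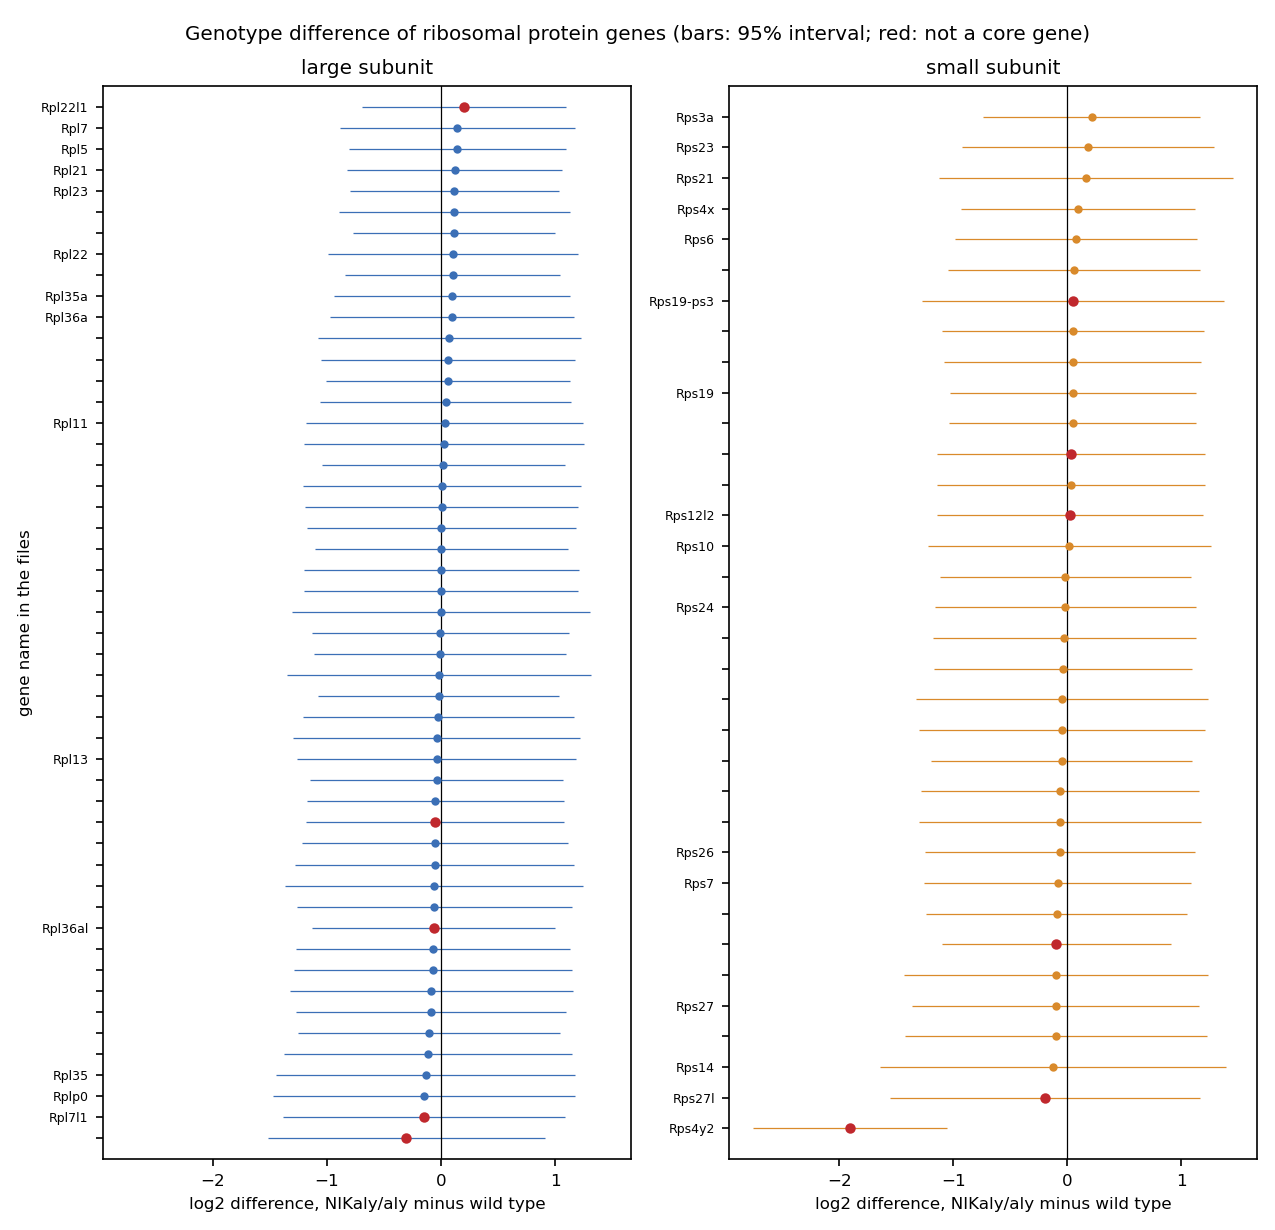
Difference between genotypes (log2, NIKaly/aly minus wild type, horizontal axis) of the large-subunit and small-subunit names reported here, with 95% intervals from limma over 3 arrays of each genotype, names outside the core set in red, and labels for the genes named by rule. All points drawn but Rps4y2, at -1.90, lie between -0.30 and 0.21, and the Rps4y2 interval is the only one that leaves out 0.

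Rps4y2 signal was lower in NIKaly/aly. Wild-type samples 1, 3 and 5 read 2.54, 1.53 and 1.35, and NIKaly/aly samples 2, 4 and 6 read 0.06, -0.37 and 0.03. Every wild-type sample lay above every NIKaly/aly sample, and the probe was well above background on all 6 arrays. The difference was -1.90 ± 0.37 (SE, n = 3 and 3; 95% interval -2.75 to -1.06), a signal 3.74-fold lower. It ranked number 7 of 15684 genes by unadjusted p, and its limma adjusted p was 0.99998. The gene had been seen to be lower in earlier results of these data, so its place here is a description and no independent support. Between consecutive samples the difference was -2.48 (1 and 2), -1.91 (3 and 4) and -1.32 (5 and 6). The limma adjusted p was 0.043 with arrays weighted by their quality, under which 5 of 15684 genes (0.0319%) and 1 of 88 members passed, and 0.077 with consecutive samples as a pair block. In bulk RNA, fewer cells that carry a transcript and less of it per cell cannot be told apart.

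Rps4x, which encodes the RPS4 protein of the small subunit, was not called. Wild-type samples 1, 3 and 5 read 9.43, 8.46 and 8.61, and NIKaly/aly samples 2, 4 and 6 read 9.37, 8.71 and 8.69. The groups overlapped, with both sample 1 and sample 2 above the other four. The difference was 0.09 ± 0.44 (SE, n = 3 and 3; 95% interval -0.93 to 1.12; limma adjusted p = 0.99998), and the second Rps4x probe gave 0.21. An unequal change was also measured within arrays, where the log2 ratio of the Rps4y2 to the Rps4x signal cancels the scaling. Only its change between arrays is read, since different probes are not comparable in level. It was -6.89, -6.92 and -7.26 in wild type and -9.31, -9.09 and -8.66 in NIKaly/aly. The ratio fell by 1.998, with no overlap, and by 2.11 with the second Rps4x probe. The exact two-sided permutation test over arrays gave p = 0.1 for both, the smallest that 3 against 3 allow.

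**Figure D2:**
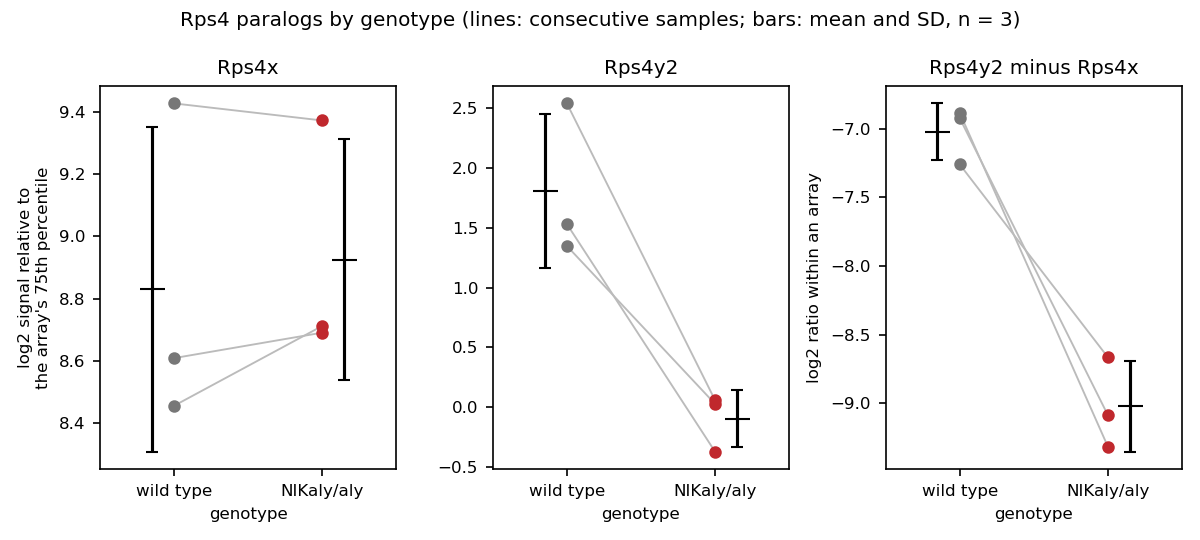
Log2 level of Rps4x and Rps4y2 (vertical axes, relative to the array's 75th percentile) and their log2 ratio within each array, by genotype; points are arrays, lines join consecutive samples, bars give mean and SD (n = 3). The Rps4y2 points fall in all 3 joined samples, from between 1.35 and 2.54 to between -0.37 and 0.06, while the Rps4x points overlap.

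In the small subunit, Rps3a, Rps23 and Rps21 were among the core genes with the smallest unadjusted p. Rps3a, now named Rps3a1, read 9.41, 8.86 and 8.97 in wild type and 9.70, 9.002 and 9.17 in NIKaly/aly, a difference of 0.21 ± 0.41 (SE). The groups overlapped, although each NIKaly/aly sample lay above the wild-type sample before it. Rps23, a protein beside the decoding centre, differed by 0.18 ± 0.48. Rps21 differed by 0.17 ± 0.56, through a single dim probe at 1.67, 1.56 and 0.56 in wild type and 2.29, 1.79 and 0.20 in NIKaly/aly. Rps14 differed by -0.13 ± 0.66 and had the widest spread of the disease genes, from 12.15 in wild type 1 to 10.02 in wild type 3.

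In the large subunit, the corresponding genes were Rpl5, Rpl7, Rpl23 and Rpl21. Rpl5, which with RPL11 and 5S ribosomal RNA can bind the p53 inhibitor MDM2, read 7.14, 6.59 and 6.55 in wild type and 7.61, 6.69 and 6.41 in NIKaly/aly. Its difference was 0.14 ± 0.41 (SE), and the groups overlapped. Rpl7 differed by 0.14 ± 0.45, Rpl23 by 0.12 ± 0.40 and Rpl21 by 0.12 ± 0.41. At the other end, Rplp0, the base of the stalk that binds elongation factors, differed by -0.15 ± 0.58 and Rpl35 by -0.13 ± 0.57.

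The 10 genes fixed for their link to Diamond-Blackfan anemia or, for Rps14, to the anemia of the 5q- syndrome had a median difference of 0.025, with 6 higher and 4 lower and none called. They ranged from -0.13 (Rps14) to 0.14 (Rpl5). Rps19, the gene most often mutated in Diamond-Blackfan anemia, read 8.70, 7.70 and 7.64 in wild type and 8.71, 7.76 and 7.71 in NIKaly/aly, a difference of 0.05 ± 0.47. Consecutive samples were close, within 0.07 of each other, while the groups overlapped. Rpl11 differed by 0.03, Rpl35a by 0.10, Rps10 by 0.02, Rps24 by -0.017, Rps26 by -0.07 and Rps7 by -0.08.

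Of the 9 paralog names, 6 were tested, with differences from -1.90 to 0.20 and a median of -0.11. Rpl22l1, the paralog of the RNA-binding protein gene Rpl22, differed by 0.20 ± 0.39 and was higher in each NIKaly/aly sample than in the sample before it, by 0.17, 0.42 and 0.03. Rpl22 itself differed by 0.10 ± 0.47. Rps27l, a p53-inducible paralog, read 7.51, 6.11 and 5.98 in wild type and 7.40, 6.03 and 5.59 in NIKaly/aly. It was lower in each NIKaly/aly sample than in the sample before it, yet the groups overlapped and the difference was -0.20 ± 0.59. Rps27 differed by -0.10 ± 0.55, Rpl7l1 by -0.15 ± 0.54, Rpl36al by -0.06 ± 0.46 against 0.10 ± 0.46 for Rpl36a, and Rps12l2 by 0.03 ± 0.51.

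Signal not well above background throughout a genotype was seen for 6 names. Rpl10l and Rpl39l, paralogs with known expression in testis, were not well above background on any array. Rpl3l, the striated-muscle paralog of Rpl3, and Rps15a-ps6 were well above background on 1 array of each genotype. Rps19-ps3 was so on 2 arrays of each genotype and differed by 0.05 ± 0.57, and Rpl7l1 on 3 wild-type and 2 NIKaly/aly arrays.

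Several tested probes were at hand for 64 genes. The differences given by the probes of 1 gene spanned a median of 0.095, and in 28 genes they had opposite signs. Rps6 and Rpl13 had probes over 0.5 apart. Rps6, the S6 kinase substrate, differed by 0.08 ± 0.46 with the probe used, but another of its 3 probes, at chr4:86500063-86500122 (mm9), read 4.84, 4.49 and 4.38 in wild type and 3.80, 3.88 and 3.85 in NIKaly/aly. The genotypes did not overlap at that probe, and its difference was -0.73 ± 0.27 (SE; limma adjusted p over 21220 probes = 0.99998). With probes tested separately, 2 of 196 member probes had an unadjusted p under 0.05 (background 1.28%) and 3 did not overlap between genotypes (background 4.57%), those of Rps4y2 and Rps6 and a second Rpl22 probe at 0.26. For Rpl13 the probe used gave -0.04 ± 0.53, whereas another read -3.38 in wild type 3 and from 2.84 to 4.78 on the other arrays. That single reading set the other probe's difference of 2.24 ± 1.83. Of 199 member probes with a position to compare, 28 lay on another chromosome than the gene in RefSeq, comparing chromosomes only, since the builds differ. The 10 tested genes read through such a probe had a median difference of -0.039, and the 77 on their own chromosome of -0.0079.

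The core genes moved together from array to array far more than they differed between genotypes. Their median level was 10.26 in wild type 1 and 10.02 in NIKaly/aly 2, but 9.05, 9.23, 9.23 and 9.34 in wild type 3, NIKaly/aly 4, wild type 5 and NIKaly/aly 6. In 73 of the 76 core genes samples 1 and 2 both lay above the other four, as they did in 39.8% of all tested genes. The SD of a core gene over the 6 arrays had a median of 0.52, and of 0.13 once each array's core median was subtracted. Over the 6 arrays 69 of the 76 followed the median core pattern with a correlation over 0.9, as did 16.1% of all tested genes. The lowest were Rps21 at 0.47, Rpl4 at 0.51 and Rpl5 at 0.82, and Rps4y2 stood at 0.35. Rps21 was read through 1 probe, at 0.20 to 2.29, the lowest core level on every array. The points behind these correlations share arrays and their scaling, so the correlations are descriptions. The 75th percentile itself ran from 47.0 to 225 in raw signal, a 4.78-fold range, and the part of the scaling in the pattern was not tested.

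**Figure D3:**
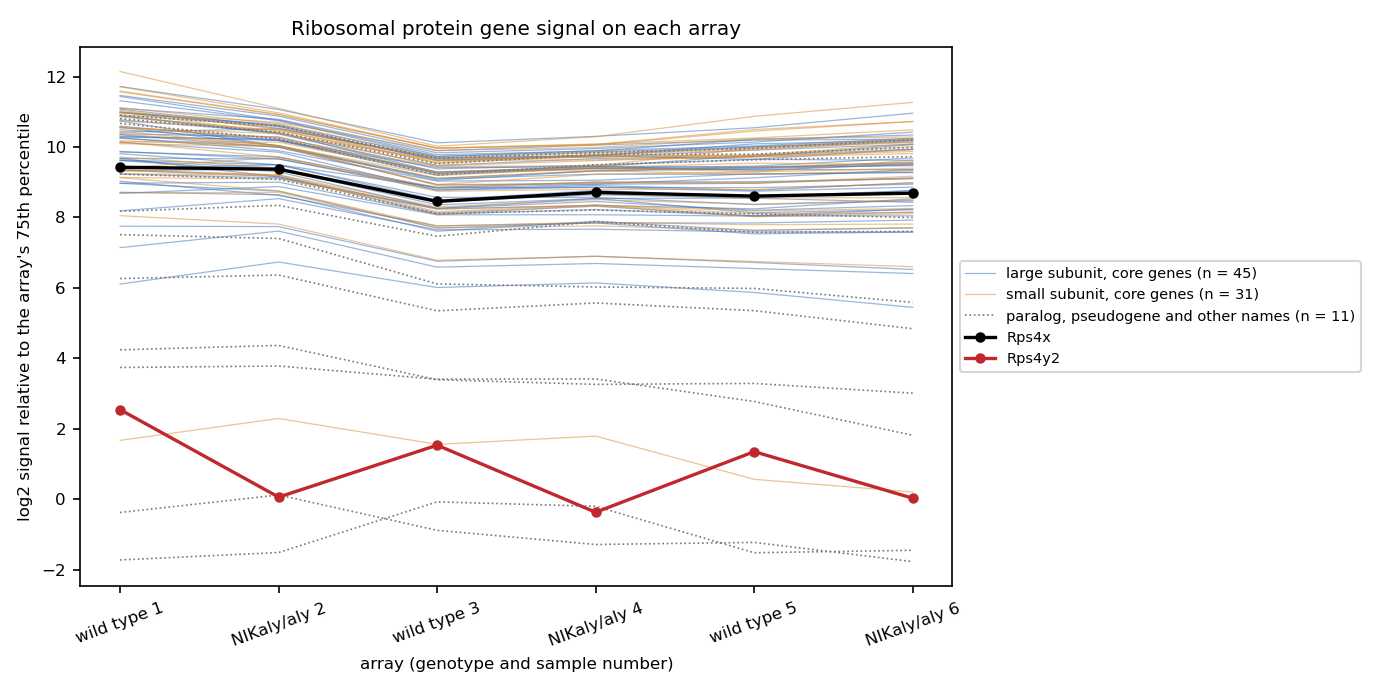
Log2 level (vertical axis, relative to the array's 75th percentile) of each tested ribosomal protein gene on the 6 arrays (horizontal axis), 1 line per gene, with core genes by subunit, other names dotted, Rps4x in black and Rps4y2 in red. Core lines run nearly parallel, with a median of 10.26 on wild type 1 and 9.05 on wild type 3, while the Rps4y2 line is lower on each NIKaly/aly array than on the wild-type array before it.

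Between consecutive samples the members did not move in 1 direction. The median difference was -0.27 between samples 1 and 2, 0.13 between 3 and 4 and 0.11 between 5 and 6. Higher in NIKaly/aly were 17, 82 and 71 of 88 names, beside 7981, 7787 and 7470 of all 15684 genes. Between samples 1 and 2 the core genes ran from -1.05 (Rps14) to 0.63 (Rpl4). Over the 76 core genes, the difference and the probe's mean level had a Pearson r of -0.71, -0.09 and 0.73 in these comparisons, a description over genes that share arrays and scaling. The labels do not state that consecutive samples belong together. In all 3 comparisons 7 names were higher (Rpl17, Rpl22l1, Rpl23, Rpl30, Rpl7, Rps19 and Rps3a; background 13.8%) and 2 were lower (Rps27l and Rps4y2; background 16.2%). With consecutive samples as a pair block, 1 of 88 members had an unadjusted p under 0.05, against 7.35% of all genes. Leaving out 1 sample moved the median of the 88 names from -0.26 (without NIKaly/aly 2) to 0.37 (without wild type 1). With samples 1 and 2 both left out, the median was 0.13 and 75 of 88 names (85.2%) were higher. Over all tested genes these were -0.018 and 46.7%. The sign of a small shared shift thus depended on which arrays were used.

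**Figure D4:**
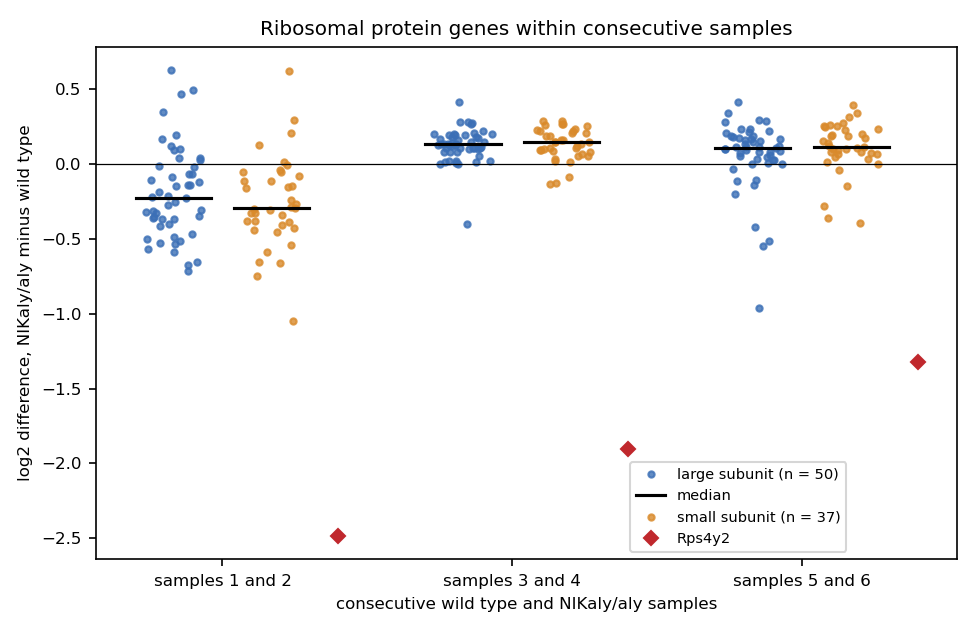
Log2 difference (vertical axis, NIKaly/aly minus wild type) of each tested ribosomal protein gene between consecutive samples (horizontal axis), by subunit, with black lines at the subunit medians and Rps4y2 as a red diamond. The median over all members is -0.27 for samples 1 and 2 but 0.13 and 0.11 for the others, and Rps4y2 lies below every other member in all 3.

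**Figure D5:**
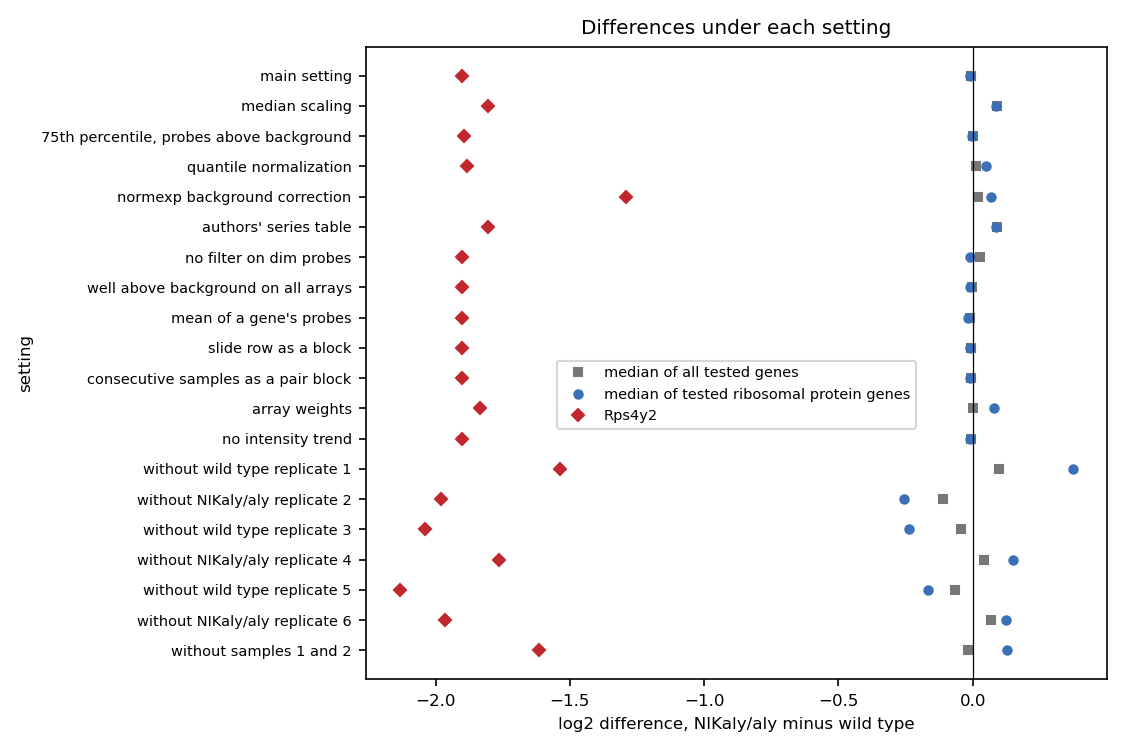
Log2 difference between genotypes (horizontal axis) under each processing setting (vertical axis), as the median of all tested genes, the median of the tested ribosomal protein genes, and Rps4y2. The members' median changes sign, from -0.26 to 0.37 when 1 array is left out, while Rps4y2 stays between -2.13 and -1.29.

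The 13 core genes with a TOP tract at an annotated start had a median difference of 0.020 (range -0.13 to 0.17), and the 43 without one of -0.016 (range -0.15 to 0.21). The search read the annotated start only, so a gene whose start is annotated some bases away from its tract counts as without one. The 43 may thus hold genes with a tract, and the difference between these medians was not tested.

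The wider machinery showed no called gene either, on lists of genes chosen with results of these data known. Of 47 tested ribosome biogenesis genes 0 passed and the median difference was -0.07. The smallest unadjusted p were those of Ltv1 (0.36 ± 0.29), a factor of small-subunit maturation, Nop58 (0.39 ± 0.34) and Gnl3 (0.34 ± 0.35), nucleolar proteins, and Nop16 (-0.43 ± 0.46). Lower in each NIKaly/aly sample than in the sample before it were 16 of the 47 (34.0%, background 16.2%), and higher were 3 (6.38%, background 13.8%). Other lists also exceeded the 16.2%. The share lower each time was 28.6% of p53 targets, 27.3% of the mTOR and S6 kinase list and 22.9% of translation factors. It was 19.7% of mitochondrial ribosomal protein genes, and 0 of the 3 ribosomal proteins under other names. Translation factors had a median of 0.021 over 35 genes, and 0 of 35 had an unadjusted p under 0.05. The smallest p were those of Eif3a (0.24 ± 0.29), the scaffold factor gene Eif4g1 (-0.22 ± 0.27), the cap-binding factor gene Eif4e (0.22 ± 0.35) and Eif1 (0.22 ± 0.36). The genotypes did not overlap for 1 of the 35 (2.86%, background 1.89% for NIKaly/aly lower). This was Eif4g1, at 5.14, 5.05 and 4.98 in wild type and 4.97, 4.90 and 4.64 in NIKaly/aly. Of the ribosomal proteins under other names, Fau differed by -0.06 and Gnb2l1 by -0.10. In the mTOR and S6 kinase list the median was -0.024 over 22 genes. Rps6ka6 differed by 0.71 ± 0.46 and was dim, at -1.92, -2.32 and -2.77 in wild type and -1.25, -1.90 and -1.72 in NIKaly/aly. It was the 1 gene of the 22 whose genotypes did not overlap (background 2.68% for NIKaly/aly higher). Myc, an activator of ribosome production, differed by -0.34 ± 0.30. The mTORC1 subunit gene Akt1s1 differed by -0.42 ± 0.39 and the S6 kinase gene Rps6kb1 by 0.27 ± 0.30.

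Mitochondrial ribosomal protein genes, which serve a separate ribosome, had a median difference of -0.022 over 76 genes. At an unadjusted p under 0.05 there was 1 (1.32%, background 1.33%), and without overlap and lower in NIKaly/aly there was 1 (1.32%, background 1.89%), so neither share exceeds the background. Both were Mrpl16, at 3.46, 2.57 and 2.21 in wild type and 1.93, 1.86 and 0.81 in NIKaly/aly. Its groups did not overlap, and its difference was -1.21 ± 0.43 (SE; limma adjusted p = 0.99998). The p53 targets, which respond to impaired ribosome assembly, had a median of -0.04 over 14 genes. Phlda3, an inhibitor of AKT, was at -1.09 ± 0.50, Sesn2 at -0.31 ± 0.29, Fas at -0.48 ± 0.47 and Mdm2 at 0.27 ± 0.47, and 0 of 14 had an unadjusted p under 0.05.

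Of 14 LSK markers, 12 were well above background on all arrays, Kit, Flt3 and Cd34 among them, and Slamf1 was not tested. Ly6a, the gene of Sca-1, on which the cells were sorted, read 3.67, 2.79 and 2.45 in wild type and 2.94, 2.44 and 1.503 in NIKaly/aly, lower than in the sample before it each time, with overlapping groups. The LSK list as a whole did not follow Ly6a, with 5 of 13 tested markers lower in NIKaly/aly and a median difference of 0.13. Its log2 summed level was 8.56, 8.49 and 8.41 in wild type and 8.73, 8.66 and 8.65 in NIKaly/aly. The summed signals of erythroid, neutrophil, B cell, and T and NK cell markers were, like the core genes, highest in samples 1 and 2. Of 10 erythroid markers 7 were tested, and their log2 summed level was 8.65 and 7.71 in samples 1 and 2 and 3.19 to 4.43 on the other arrays. Hbb-b1, a beta-globin gene, read 7.61 and 6.51 against 2.47 to 3.18. All 9 neutrophil markers were tested, with a summed level of 12.87 and 12.07 against 10.12 to 11.94. Between genotypes, all 8 tested B cell markers were lower in NIKaly/aly, with a median difference of -0.78, and all 5 tested macrophage and dendritic cell markers were lower, with a median of -1.01. For the neutrophil markers 9 of 9 were lower (median -0.17), for the erythroid markers 6 of 7 (median -0.27), and for the T and NK cell markers 3 of 5 (median -0.24). The neutrophil sum, however, fell only from sample 1 to sample 2. It rose from 10.12 to 10.26 between samples 3 and 4 and from 11.72 to 11.94 between samples 5 and 6. The log2 summed level of B cell markers was 7.08 and 6.11 in samples 1 and 2 and 4.29 to 5.40 on the other arrays, and that of T and NK cell markers 7.72 and 7.47 against 5.92 to 6.56. By genotype, the B cell sum was 5.22 to 7.08 in wild type and 4.29 to 6.11 in NIKaly/aly. The macrophage and dendritic cell sum was 4.91 to 5.62 in wild type and 4.18 to 4.44 in NIKaly/aly, without overlap. Most of that sum was Csf1r, which read 5.29, 4.51 and 4.55 in wild type and 3.82, 3.77 and 3.26 in NIKaly/aly. Of the 5 tested markers of this list, only 2 were well above background on all arrays. The part of these cell types in the Rps4y2 difference and in the shifts between arrays was not tested.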

How the data were processed

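Total RNA of sorted LSK cells was amplified, labelled with Cy3 and hybridised to 1-colour Agilent arrays, per the labels. Intensity came from Agilent Feature Extraction 10.7.3.1, with probe positions on mm9, per the file headers. The authors' deposited series table holds a ratio per probe, the processed signal over the array's median, and was used as an alternative. The log2 of the deposited processed intensity was expressed against the 75th percentile of its array. Control spots and outlier flags were left out, and spots of 1 probe were averaged. Of several probes of a gene the brightest was used. limma 3.58.1 (R 4.3.3) compared the genotypes (lmFit, eBayes with an intensity trend, two-sided, Benjamini-Hochberg over all 15684 genes), which was tested on simulated data. All arrays shared 1 slide and scan, and their number limits the precision. From 33.1% to 45.6% of an array's spots were well above background.

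The members and lists were chosen with earlier results of these data known. Named are Rps4x and Rps4y2, per subunit the 4 core genes of smallest unadjusted p and the 2 largest differences each way, paralogs, members near background, genes with discordant probes, the disease genes, and up to 4 genes per other list. Gene names are the files'. Of 92 member names 91 matched RefSeq. The aly allele is a point mutation, so the Map3k14 signal is no check of the labels. A few genes that the rule covers are not reported here by name; the counts and medians include them.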

Additional observations from a re-analysis of the deposited data

How the results depend on the processing

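Rps4y2 was lower in NIKaly/aly under every alternative run. Its difference was -1.84 with array weights (limma adjusted p = 0.043). It was -1.92 (limma adjusted p = 0.0019) with arrays scaled to the members' median and the pair block, an alternative chosen after seeing the data. In both settings the 1 member called was Rps4y2 itself, which RefSeq lists as a transcribed pseudogene. Its difference was -1.29 after normexp correction and -2.13 to -1.54 when 1 sample was left out. Its ratio to Rps4x was -1.47 after normexp correction. Rps4x changed sign, from -0.13 to 0.39 with 1 sample left out. Over all genes, 10 were called with median scaling, 10 with the authors' series table, 5 with array weights, 2 without a filter on dim probes, 2 with the pair block, 1 after normexp correction, 68 with the members' median and pair block, and 0 to 1 with 1 sample left out (1 without wild type 3). At an unadjusted p under 0.05 there were 208 in the main setting and 119 with median scaling. The cause of these changes was not tested. No paired analysis by replicate number was possible because the genotypes share no sample number. Of the values of the other named genes under alternatives, 627 moved by less than the spread between replicates and 1 moved by more (Rpl13 with the mean of its probes, 0.74). Their sign is weak: 36 of 88 members changed sign with median scaling and 47 without wild type 1.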

Other observations

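The genes beside Rps4y2 on chromosome 6, taken in RefSeq order as the nearest 6 tested on each side, were looked at after its value was seen. Over all tested genes, 2.68% did not overlap with NIKaly/aly higher and 1.89% with NIKaly/aly lower. Ppfibp1, which encodes a liprin-family scaffold protein, was the only one of the 12 whose genotypes did not overlap, and it differed the opposite way from Rps4y2. It read -0.75, -0.38 and -0.48 in wild type and 0.06, 0.22 and 0.11 in NIKaly/aly, a difference of 0.67 ± 0.28 (SE; limma adjusted p = 0.99998). Rep15 differed by 1.35 ± 0.66 with overlapping groups, and the other 10 by -0.13 to 0.35.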
